A study of Mus musculus with 9 samples.

Results

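The mitochondrial respiratory chain was followed through 86 of its genes in sorted mouse microglia, the resident macrophages of the brain, on days 7, 30 and 90 after a brain injury. Members were taken by symbol: the usual names of the subunits of complexes I to V, encoded either in the nucleus or, with the prefix mt-, in the mitochondrial genome. A gene entered when it had at least 1 CPM in at least 3 of the 9 libraries, where CPM is the count of a gene's reads scaled to a library total of 1000000. Of 89 matching symbols, 76 nuclear and 13 mitochondrial, all 76 nuclear genes and 10 mitochondrial genes passed, out of 15041 genes tested and 49671 listed. The nuclear members comprised 35 of complex I, 4 of complex II, 8 of complex III, 12 of complex IV and 17 of complex V, and the mitochondrial members 6 of complex I, 1 of complex III, 2 of complex IV and 1 of complex V. Ndufa4, named after complex I, was counted in complex IV, where its protein is now placed. Atp5s and Atp5sl match the naming pattern but are listed today as Dmac2l and Dmac2, the second of which is known for the assembly of complex I.

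All 9 mice were male C57BL/6 recipients (CD45.2) whose marrow had been replaced at 8 weeks of age by CD45.1 marrow of B6.SJL-Ptprca Pepcb/BoyJ donors, after 1000 cGy of body irradiation with a shielded head and 30 mg/kg busulfan. At 16 weeks each received a controlled cortical impact, with a 3 mm tip driven 2 mm deep at 2.5 m/s, and CD45.2 microglia were sorted on day 7, 30 or 90, with 3 mice and 1 library per mouse at each time. Polyadenylated RNA was read from its 3′ end (QuantSeq), so CPM were not divided by transcript length. The libraries held 7210985 to 12965926 counted reads. Injury, irradiation, busulfan and the marrow graft were shared by all groups, age rose with the day, and libraries of uninjured mice were not analysed here, so each comparison is between times after injury.

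The respiratory chain passes electrons from NADH (complex I) or succinate (complex II) through ubiquinone, complex III and cytochrome c to oxygen (complex IV), and complex V uses the resulting proton gradient to make ATP. Complexes I, III, IV and V are built from subunits of both genomes, whereas complex II is wholly nuclear. Mitochondrial messages are transcribed together as long precursors and cut mostly at the transfer RNAs between genes, though some neighbouring genes overlap. Microglia are known to shift between oxidative and glycolytic metabolism when activated.

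The mouse nuclear genome holds copies of mitochondrial DNA, and a read that lies wholly in an identical copy has more than 1 place to align. On chr1, annotated pseudogenes between 24611535 and 24616197 (mm10) repeat parts of the stretch from mt-Co1 to mt-Nd4. The last 60 matching bases of the cytochrome oxidase gene mt-Co2 and of its chr1 copy Gm28661 are printed first, and those of the cytochrome b gene mt-Cytb and of its closest copy Gm11410 after them. They show a message end that cannot be placed uniquely and one that can (reference sequence of GENCODE M21, mm10). Capitals mark bases that differ within a pair. The mt-Co2 pair had 0 differing bases and the mt-Cytb pair had 5.
mt-Co2 (chrM:7634-7693, plus strand): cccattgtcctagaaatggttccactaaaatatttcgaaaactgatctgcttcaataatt
Gm28661 (chr1:24614885-24614944, minus strand): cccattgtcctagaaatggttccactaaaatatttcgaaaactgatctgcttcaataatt
mt-Cytb (chrM:15228-15287, plus strand): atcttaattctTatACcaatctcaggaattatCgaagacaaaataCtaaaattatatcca
Gm11410 (chr4:80005072-80005131, plus strand): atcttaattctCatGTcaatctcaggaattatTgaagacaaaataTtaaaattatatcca

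Mitochondrial messages spanned the whole range of expression, from no read to some of the highest levels in these cells. For 6 of the 13 genes at least 98% of the last 300 bases (the whole gene where shorter) lay within such a chr1 copy of at least 98% identity: mt-Co1, mt-Co2, mt-Atp6, mt-Co3, mt-Nd3 and mt-Nd4l. Their levels, averaged over 9 libraries, were 594, 3.04, 1.56, 0.271, 31.7 and 0 CPM. The 5 others with a level above 100 CPM had no such match at the end: 5245 CPM for mt-Nd1, 2433 for mt-Nd2, 6020 for mt-Nd4, 866 for mt-Nd5 and 6897 for mt-Cytb. The split was not clean. mt-Nd6, the one member transcribed from the other strand, stood at 15.2 CPM and mt-Atp8 at 0 with no such annotated copy, and mt-Co1 exceeded both with its end in a copy of 99.8% identity. Only annotated genes were searched for copies. The 2 genes at 0 also overlap the gene after them. mt-Atp8 (chrM:7766-7969) overlaps mt-Atp6 (chrM:7927-8607), and mt-Nd4l (chrM:9877-10173) overlaps mt-Nd4 (chrM:10167-11544). Reads from the 3′ end of a message that holds both genes would fall in the second, which was not tested. In mt-Nd4 the match to Gm28439 covered bases 1 to 876 of 1378 and stopped short of the 3′ end. The chr1 copies in the table were themselves at 0 to 2.52 CPM on average. The counting program named in the submitters' notes, HTSeq, by default leaves out reads that align to more than 1 place; whether such reads were dropped here was not tested. The low or absent reads of mt-Co2, mt-Co3, mt-Atp6, mt-Nd3 and mt-Nd4l are not read here as the level of those messages.

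**Figure D1:**
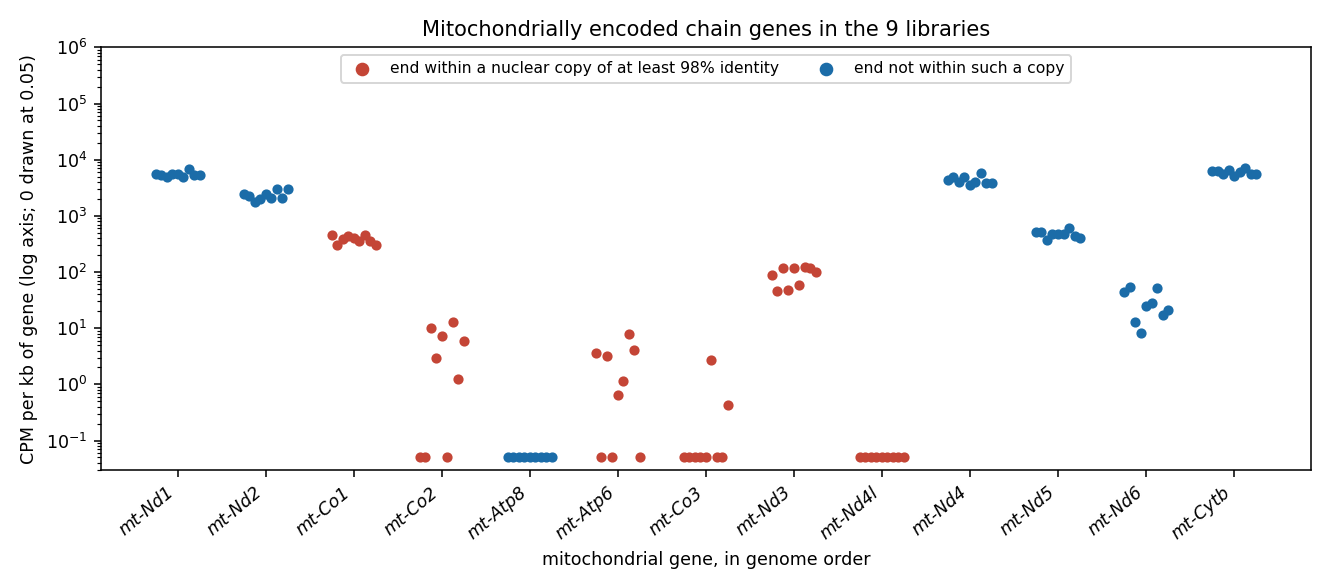
Level of the 13 mitochondrially encoded chain genes in the 9 libraries, in CPM per kb of gene on a log axis, in genome order; each point is a library, in the order days 7, 30 and 90, and values of 0 are drawn at 0.05. Red genes end within a nuclear copy of at least 98% identity and stood at 0 to 385 CPM per kb on average, and blue genes do not, of which mt-Cytb averaged 6028. With reads from the 3′ end the division by length is not a correction of level, and the text gives undivided CPM.

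Among the 6 mitochondrial members above 100 CPM, none passed the test between days and the libraries of all days overlapped. Values per library are given in the order of replicates 2, 3 and 4 for days 7 and 30, and of replicates 1, 3 and 4 for day 90. mt-Cytb (ENSMUSG00000064370, chrM:14145-15288), the cytochrome b of complex III and the only chain subunit of complex III from the mitochondrial genome, had 7198, 7235 and 6359 CPM on day 7, 7487, 5892 and 6836 CPM on day 30, and 8165, 6493 and 6404 CPM on day 90. All 3 days overlapped, and replicate 1 of day 90 was the highest library. mt-Nd4 (ENSMUSG00000064363, chrM:10167-11544), a proton-pumping subunit of complex I, had 6023, 6689 and 5611 CPM on day 7, 6729, 4852 and 5634 CPM on day 30, and 7907, 5325 and 5408 CPM on day 90. mt-Nd1 (ENSMUSG00000064341, chrM:2751-3707), at the ubiquinone site of complex I, had 5343, 5032 and 4769 CPM on day 7, 5352, 5324 and 4799 CPM on day 30, and 6451, 5039 and 5095 CPM on day 90. Both again had their highest value in replicate 1 of day 90 and overlapped across days otherwise. For mt-Nd1 the log2 difference was 0.12 ± 0.20 (SE) for day 90 against day 7, with a 95% interval of −0.29 to 0.54, and for mt-Cytb it was 0.01 ± 0.21, with an interval of −0.42 to 0.44.

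mt-Nd2 (ENSMUSG00000064345, chrM:3914-4951), another proton-pumping subunit, had the smallest F-test p of the mitochondrial members of complex I. Its values were 2507, 2315 and 1860.1 CPM on day 7, 2091, 2536 and 2119.7 CPM on day 30, and 3155, 2195 and 3119 CPM on day 90. On day 90, replicates 1 and 4 lay above all other libraries while replicate 3 lay within them, and the log2 difference was 0.33 ± 0.20 for day 90 against day 7 (limma adjusted p = 0.722; F-test adjusted p = 0.841). mt-Nd5 (ENSMUSG00000064367, chrM:11742-13565), the outermost proton-pumping subunit, had 947, 959.6 and 689 CPM on day 7, 859, 851 and 856 CPM on day 30, and 1101, 791 and 738 CPM on day 90. mt-Co1 (ENSMUSG00000064351, chrM:5328-6872), the catalytic subunit of complex IV, had 700.5, 467 and 593 CPM on day 7, 686, 632 and 555 CPM on day 30, and 699, 551 and 466 CPM on day 90. Both genes overlapped across all days, with log2 differences for day 90 against day 7 of 0.01 ± 0.20 and −0.04 ± 0.20.

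The remaining mitochondrial genes had few or no counted reads. mt-Nd6 (ENSMUSG00000064368, chrM:13552-14070, minus strand), a core complex I subunit, had 23.2, 28.3 and 6.72 CPM on day 7, 4.24, 13 and 14.4 CPM on day 30, and 27.4, 8.82 and 11 CPM on day 90. mt-Nd3 (ENSMUSG00000064360, chrM:9459-9806), also a core subunit of complex I, had 31.2, 16.1 and 40.6 CPM on day 7, 16.5, 41.8 and 20.6 CPM on day 30, and 42.6, 41.8 and 34.2 CPM on day 90. mt-Co2 (ENSMUSG00000064354, chrM:7013-7696), which takes electrons from cytochrome c, had 0, 0 and 6.89 CPM on day 7, 2.01, 4.93 and 0 CPM on day 30, and 8.65, 0.854 and 4.06 CPM on day 90. mt-Atp6 (ENSMUSG00000064357, chrM:7927-8607), the proton channel subunit of complex V, had 2.44, 0 and 2.21 CPM on day 7, 0, 0.448 and 0.788 CPM on day 30, and 5.44, 2.75 and 0 CPM on day 90. The libraries of different days overlapped in all 4, and the smallest adjusted p of any of them was 0.807 (limma). mt-Nd4l and mt-Atp8 had no read in any library, and 3 reads corresponded to between 0.231 and 0.416 CPM. mt-Co3 had 2.1 CPM in replicate 4 of day 30, 0.338 CPM in replicate 4 of day 90 and 0 in the other 7 libraries.

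No respiratory chain gene passed the threshold in any comparison of days. With limma and an adjusted p under 0.05 over all 15041 genes, 0 of 86 members were called for day 90 against day 7, where 0.246% of all genes were called, 0 for day 30 against day 7, where 0% were, and 0 for day 90 against day 30, where 0.0532% were. The F-test over the 3 days also called 0 members, against 0.173% of all genes. At an unadjusted p under 0.05, 2 members stood out for day 90 against day 7, 5 for day 30 against day 7 and 5 for day 90 against day 30, which are 2.33%, 5.81% and 5.81% of the members against 7.73%, 6.24% and 5.03% of all genes. For the F-test the count was 5, with 6.87% of all genes. Of the first 2 members, 1 was higher and 1 lower on day 90 (all genes, 3.48% and 4.25%). All 5 were lower on day 30 than on day 7 (all genes, 3.56% higher and 2.68% lower). All 5 of the third pair were higher on day 90 than on day 30 (all genes, 1.59% higher and 3.44% lower). Counted in both directions, the members' share lay below that of all genes in the first 2 pairs and slightly above it in the third. In the direction in which they lay, the 5 members lower on day 30 and the 5 higher on day 90 than on day 30 were each 5.81% of the members, above the 2.68% and 1.59% of all genes. These counts moved with single libraries: leaving out 1 library gave 2 to 11, 2 to 8 and 3 to 13 members for the 3 pairs. Without replicate 1 of day 90 they were 5, all lower on day 90 than on day 7, then 5 and 3. The highest counts came without replicate 3 of day 7, replicate 4 of day 7 and replicate 4 of day 90. Shares of all genes in these reduced fits are not given here. The counts therefore show only that the number moved, not an excess among the members. Libraries did not overlap in 4 members for day 90 against day 7 (11.7% of all genes): 3 were higher (5.4% of all genes) and 1 was lower (6.27%). They did not overlap in 8 for day 30 against day 7 (12.6%): 1 was higher (6.85%) and 7 were lower (5.74%). For day 90 against day 30 there were 7 (9.93%): 5 were higher (3.75%) and 2 were lower (6.18%). The members counted as higher on day 90 than on day 30 include Ndufs5, which passed the filter only through its day 90 libraries. edgeR on whole reads recovered from the CPM called 0 members in every comparison, and DESeq2 also called 0. The calls of both tools over all genes are given with the processing. The comparisons share libraries, so that a gene low on day 30 appears in more than 1 of them. In bulk RNA of a sorted population, fewer cells of a type and less RNA per cell cannot be told apart.

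The precision differed between members. Standard errors of the log2 differences ran from 0.197 to 0.967 with a median of 0.333. They and the intervals draw largely on the trend of the variance over all genes, beside each gene's own spread. The 95% interval lay within a 2-fold difference in both directions for 46 members for day 90 against day 7, for 51 for day 30 against day 7 and for 43 for day 90 against day 30. The other members could have differed by more than 2-fold without being detected at this depth and number of mice. Over the 9 libraries the coefficient of variation had a median of 31.5% for nuclear members and 17.1% for mitochondrial ones, and was 9.58% for mt-Nd1 and 10.1% for mt-Cytb. Among genes of 50 to 200 CPM the median was 28.4% for the 38 nuclear members and 24.1% for all 2769 genes.

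Nuclear members as a group lay slightly lower on day 30 and slightly higher on day 90. The median log2 difference of the 76 was 0.14 for day 90 against day 7, −0.12 for day 30 against day 7 and 0.23 for day 90 against day 30. Medians of all tested genes were −0.02, 0.04 and −0.06. Fitted differences were negative in 27 of 76 (35.5%) for day 90 against day 7, in 49 (64.5%) for day 30 against day 7 and in 19 (25%) for day 90 against day 30. Of all genes 51.6%, 46.8% and 55% were negative. For the 10 mitochondrial members the medians were 0.07, −0.02 and 0.21, and for the 6 above 100 CPM they were 0.01, 0.01 and 0.07. The median over members within a library varied between mice of 1 day by a pooled SD of 0.27 for nuclear and 0.21 for mitochondrial members. The lower position on day 30 rested on single libraries: the nuclear median for day 30 against day 7 was −0.01 without replicate 3 of day 7, with 38 of 76 negative, and −0.01 without replicate 4 of day 30, with 40 negative. The higher position on day 90 rested on replicate 1: without it, the nuclear median was −0.081 for day 90 against day 7, with 33 of 76 positive, and 0.026 for day 90 against day 30, with 42 positive. The mitochondrial medians without it were −0.13 and 0.018.

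**Figure D2:**
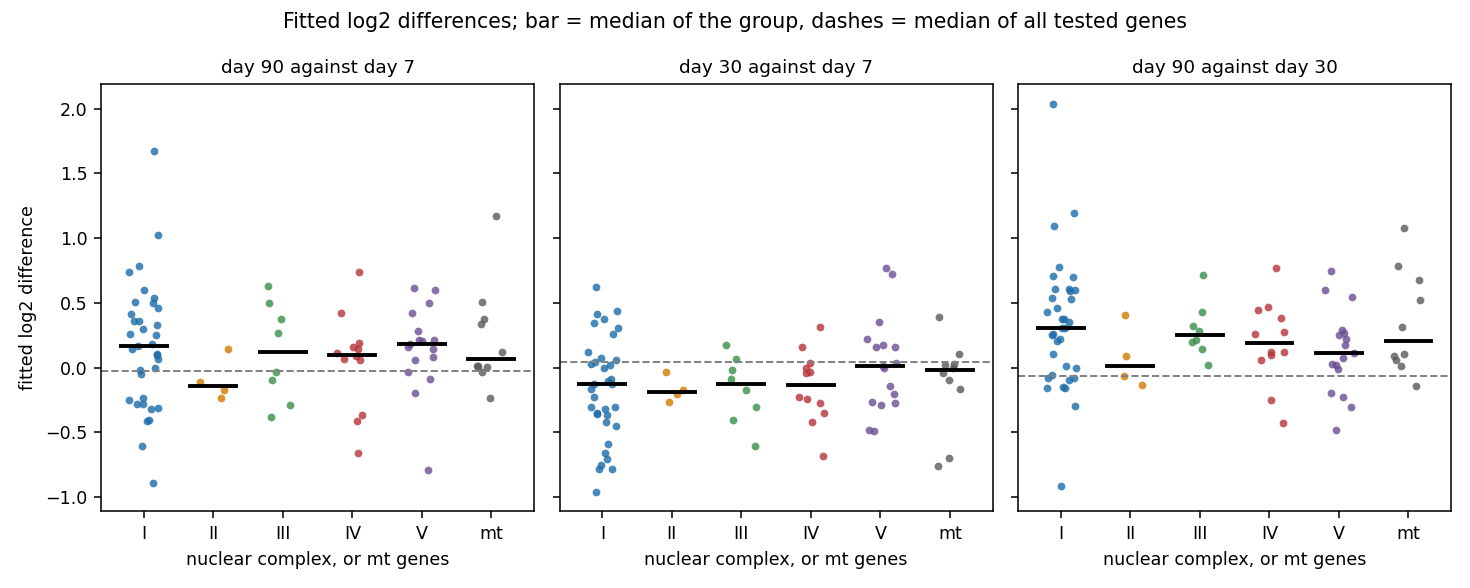
Fitted log2 differences of each member (points) for 3 pairs of days, with nuclear members split by complex and the 10 mitochondrial (mt) members together; bars are group medians and the dashed line is the median of all 15041 tested genes. The nuclear medians of complexes I, III, IV and V lie above the dashed line for both day 90 comparisons, and those of all 5 complexes lie below it for day 30 against day 7.

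Replicate 1 of day 90 stood apart from the other libraries over all genes, with a first principal component score of 127 against −22.9 to −3.13, a median correlation of 0.837 with the others and the fewest genes with a read (14039). In that library 39 of 76 nuclear members (51.3%) and 8 of 10 mitochondrial members had their highest value of the 9 libraries, as did 18.3% of all tested genes. Relative to each gene's mean over the libraries, its median was 0.56 log2 higher for nuclear members and 0.40 higher for mitochondrial members, and −0.05 for all genes. Each nuclear complex shared this: the medians were 0.56 for complex I, 0.57 for complex II, 0.62 for complex III, 0.54 for complex IV and 0.56 for complex V. The next highest library was replicate 3 of day 7, with 0.35 for the nuclear members and −0.05 for the mitochondrial ones. The summed level of 10 endothelial and pericyte markers was highest in these same libraries, at 3337 CPM in replicate 1 of day 90 and 3079 CPM in replicate 3 of day 7, against 1124 to 2393 CPM in the other 7. In the same pair of libraries 10 microglial markers summed to 14978 and 14094 CPM, against 16921 to 21461 CPM. All 10 markers of each list were detected. Monocyte markers summed to 210.1 to 248 CPM on day 7, 97.4 to 152 CPM on day 30 and 97.8 to 162 CPM on day 90. Most of this was Fn1, with 206.5, 202 and 207 CPM on day 7. For day 30 against day 7, Ccr2 of this list had a log2 difference of 0.16 ± 0.98 and the other tested markers negative ones. Neutrophil markers summed to 68.7 to 143, 2.85 to 49.4 and 1.42 to 69.9 CPM on days 7, 30 and 90. Days 7 and 90 overlapped, and every day 7 sum lay above every day 30 sum. Lcn2 of this list passed the threshold for day 90 against day 7, with a log2 difference of −4.49 ± 0.92 (limma adjusted p = 0.0147). It had 5.82 to 61.9 CPM on day 7 and at most 1.23 CPM later, and passed the filter through its day 7 libraries. S100a8, S100a9 and Retnlg did not pass the threshold. In replicate 2 of day 7 the neutrophil sum was mostly Lcn2, at 61.9 CPM. The part of other cells in the chain values was not tested. Sums of neuronal, astrocyte and oligodendrocyte markers were 934, 261 and 186 CPM in replicate 1 of day 90, and these 3 were not highest there. Neuronal sums were 1080 to 1258 CPM on day 7, 1505 to 3039 CPM on day 30 and 934 to 1742 CPM on day 90. Every day 30 value lay above every day 7 value, and most of each sum was Meg3. Astrocyte sums were 208 to 345, 269 to 293 and 220 to 262 CPM on days 7, 30 and 90. Oligodendrocyte sums were 247 to 324, 272 to 369 and 186 to 373 CPM. Those of T and NK cells and of B cells were highest in replicate 1 of day 90, at low levels of 9.90 and 19.0 CPM.

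**Figure D3:**
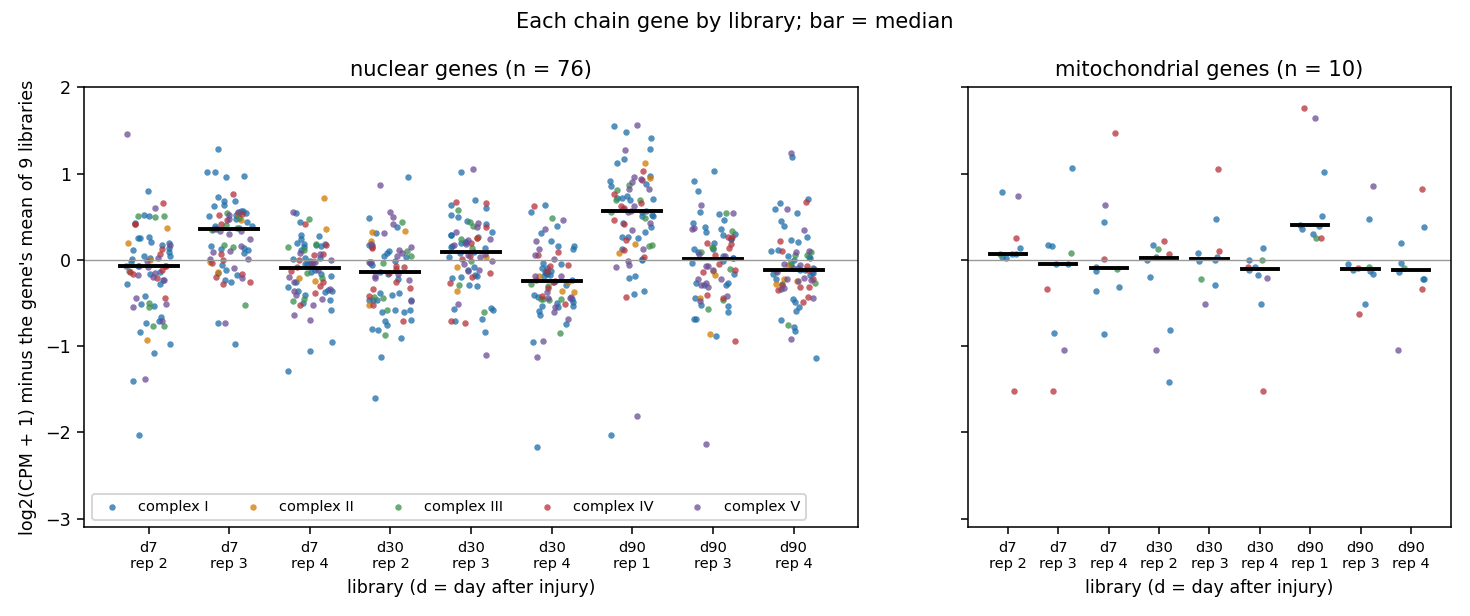
Deviation of each member from its mean over 9 libraries, on the log2(CPM + 1) scale, by library, for 76 nuclear members coloured by complex (left) and 10 mitochondrial members (right); bars are medians. The median of replicate 1 of day 90 is 0.56 for nuclear and 0.40 for mitochondrial members, while the other libraries lie between −0.25 and 0.35.

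Complex I, which oxidises NADH, had 35 nuclear members with mean levels of 1.7 to 134 CPM. Their summed level was 1910.2 ± 314 CPM on day 7, 1649 ± 238 CPM on day 30 and 2024 ± 479.9 CPM on day 90 (SD, n = 3 mice each). All days overlapped, and the medians of the fitted log2 differences were 0.17 for day 90 against day 7, −0.12 for day 30 against day 7 and 0.31 for day 90 against day 30. Without replicate 1 of day 90 they were −0.004 and 0.10 for the comparisons with day 90. Ndufc2 (ENSMUSG00000030647, chr7:97400003-97407802), an accessory subunit of the membrane arm, had the highest mean. Its values were 188, 117 and 163 CPM on day 7, 129, 122 and 119.9 CPM on day 30, and 116, 132 and 122 CPM on day 90. Replicates 2 and 4 of day 7 lay above all libraries of the later days, and replicate 3 lay among them.

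Ndufb10 (ENSMUSG00000040048, chr17:24722060-24724478), an accessory subunit of the far end of the membrane arm, had the smallest F-test p among nuclear members of complex I. It had 31.8, 46.3 and 27.5 CPM on day 7, 9.72, 27.4 and 27.6 CPM on day 30, and 38, 55.6 and 46.2 CPM on day 90. Every day 90 library lay above every day 30 library, and day 7 overlapped with both. The log2 difference was 1.19 ± 0.42 for day 90 against day 30 (limma adjusted p = 0.859) and −0.78 ± 0.42 for day 30 against day 7 (adjusted p = 0.813).

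Other complex I genes with an unadjusted p under 0.05 in a pair of days are named here after their values were seen. Lower on day 30 than on day 7 in every library were Ndufb8, Ndufv2, Ndufa13 and Ndufa2. Ndufv2 (ENSMUSG00000024099, chr17:66078638-66101559), which carries an iron-sulphur cluster of the NADH-oxidising module, had 62.7, 55.7 and 39.5 CPM on day 7, 23.5, 31.3 and 24.1 CPM on day 30, and 60.04, 28.8 and 21.6 CPM on day 90. The log2 difference was −0.96 ± 0.40 for day 30 against day 7 (limma adjusted p = 0.731). On day 90 its replicates 3 and 4 lay within or below the day 30 range and replicate 1 within that of day 7. Ndufb8 (ENSMUSG00000025204, chr19:44548572-44555440), an accessory subunit of the membrane arm, had 104, 94 and 82.6 CPM on day 7, 47.4, 68.5 and 50.7 CPM on day 30, and 104, 47.3 and 83.8 CPM on day 90. Ndufa13 (ENSMUSG00000036199, chr8:69894180-69902558), an accessory subunit also known as GRIM-19, had 79.1, 135 and 69.7 CPM on day 7, 58.4, 55.5 and 43.8 CPM on day 30, and 113, 69.7 and 39.5 CPM on day 90. On day 90 both genes spread over the ranges of the other days. Ndufa2, an accessory subunit of the NADH-oxidising module, had 93.8, 116 and 86.8 CPM on day 7, 64.3, 69.9 and 60.6 CPM on day 30, and 141, 86.9 and 77.3 CPM on day 90. Its day 30 libraries lay below those of both other days. The log2 differences for day 30 against day 7 were −0.75 ± 0.30, −0.79 ± 0.33 and −0.59 ± 0.28 for Ndufb8, Ndufa13 and Ndufa2, with adjusted p of 0.725, 0.738 and 0.791.

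Higher on day 90 than on day 30 were, beside Ndufb10 and Ndufa2, the accessory subunits Ndufa12 and Ndufs5. Ndufa12 (ENSMUSG00000020022, chr10:94198720-94221443) had 49.4, 21.6 and 32.6 CPM on day 7, 16.3, 24.2 and 45.6 CPM on day 30, and 72.9, 43.6 and 58.4 CPM on day 90. Its day 90 and day 30 libraries overlapped in 1 library of each day, and the log2 difference was 1.09 ± 0.41 (limma adjusted p = 0.893). Ndufs5 (ENSMUSG00000028648, chr4:123712710-123718202) had 0, 2.5 and 0.0884 CPM on day 7, 0.386, 0.179 and 0.0876 CPM on day 30, and 4.91, 3.32 and 3.81 CPM on day 90. All 3 day 90 libraries lay above the other 6, with log2 differences of 1.67 ± 0.84 for day 90 against day 7 (adjusted p = 0.649) and 2.04 ± 0.84 for day 90 against day 30 (adjusted p = 0.953). Outside day 90, only replicate 3 of day 7 reached 1 CPM. Ndufs5 thus passed the filter only through the day on which it was high, and its separation is no evidence of a difference. Ndufs5 was among the lowest members and shares 186 bases at 100% identity of its 3′ end with the processed pseudogene BC002163 on chromosome 16, and averaged 1.7 CPM, against 6.3 CPM for the pseudogene. The summed level of the pair was 3.36, 6.52 and 5.66 CPM on day 7, 5.24, 5.83 and 4.29 CPM on day 30, and 21.4, 13.4 and 6.26 CPM on day 90. In the sum the day 90 libraries still included the highest values, but replicate 4 of day 90 lay within the range of day 7, so the value of Ndufs5 itself is uncertain.

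Complex II, or succinate dehydrogenase, links the chain to the tricarboxylic acid cycle and has 4 subunits, all nuclear. Their sum was 468 ± 42 CPM on day 7, 409 ± 43.4 CPM on day 30 and 477 ± 173 CPM on day 90. Without replicate 1 of day 90, at 677 CPM, the day 90 values were 375 and 379.6 CPM, below every day 7 value (436 to 516 CPM). Sdhc (ENSMUSG00000058076, chr1:171127165-171150603), a heme-binding membrane anchor, had both the highest mean and the smallest F-test p of this complex, with 291, 222 and 194 CPM on day 7, 157, 230.1 and 198 CPM on day 30, and 436, 199 and 193 CPM on day 90. Replicate 1 of day 90 was far above all others, and the remaining libraries of the 3 days overlapped; the F-test gave an adjusted p of 0.877 (limma). The medians over the 4 genes were −0.14, −0.19 and 0.01 in the same order of the 3 pairs of days. Mean levels were 129.8 CPM for the flavoprotein Sdha, 76.8 CPM for the iron-sulphur subunit Sdhb and 9.29 CPM for the anchor Sdhd.

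Complex III hands electrons from ubiquinol to cytochrome c, and its 8 nuclear members summed to 794 ± 102 CPM on day 7, 690.0 ± 95 CPM on day 30 and 821 ± 179 CPM on day 90. Uqcrh (ENSMUSG00000063882, chr4:116066965-116075071), the hinge protein that helps cytochrome c dock, had the highest mean, with 208, 292 and 259 CPM on day 7, 236, 187 and 188 CPM on day 30, and 257, 213 and 237 CPM on day 90. The days overlapped, with replicates 3 and 4 of day 7 and replicate 1 of day 90 at the top. Uqcr11 (ENSMUSG00000020163, chr10:80402997-80406830), a small accessory subunit, had the smallest F-test p of this complex, with 26.4, 55.2 and 28 CPM on day 7, 25.8, 46.5 and 28.4 CPM on day 30, and 69.8, 57.8 and 38.6 CPM on day 90. The days overlapped here as well, and the log2 difference was 0.63 ± 0.38 for day 90 against day 7 (limma adjusted p = 0.727). All 8 genes had a positive fitted difference for day 90 against day 30, with a median of 0.25; without replicate 1 of day 90, 5 of 8 were positive, with a median of 0.077.

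Complex IV, cytochrome c oxidase, contained the members with the smallest p of the chain. Its 12 nuclear members summed to 1372 ± 94 CPM on day 7, 1193 ± 107 CPM on day 30 and 1421 ± 346 CPM on day 90. Cox6b1 (ENSMUSG00000036751, chr7:30616861-30626151), a subunit on the side facing the intermembrane space, had 129, 122 and 107 CPM on day 7, 97.3, 144 and 112 CPM on day 30, and 286, 168 and 163 CPM on day 90. Every day 90 library lay above every library of days 7 and 30, and replicate 1 of day 90 was the highest by far. Its means were 206 ± 69.6 CPM on day 90 against 119 ± 11.3 CPM on day 7 and 118 ± 24 CPM on day 30 (SD, n = 3 mice each). The log2 difference was 0.74 ± 0.25 for day 90 against day 7 (limma adjusted p = 0.348). For day 90 against day 30 it was 0.77 ± 0.25 (limma adjusted p = 0.772), so Cox6b1 did not pass over all genes. Without replicate 1 of day 90 it was 0.47 for day 90 against day 7 (limma unadjusted p = 0.0725). With DESeq2 the test over the 3 days gave an adjusted p of 0.0546 for Cox6b1, the smallest of any member under any setting run.

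Cox7a2l (ENSMUSG00000024248, chr17:83501918-83517330), known in its long form for joining complexes III and IV into supercomplexes (C57BL/6 mice carry a short form), was the other member at an unadjusted p under 0.05 for day 90 against day 7 and is named after its value was seen. It had 116, 116 and 89.99 CPM on day 7, 82.2, 98.8 and 91.9 CPM on day 30, and 64.1, 63.6 and 74.3 CPM on day 90. All 3 day 90 libraries lay below the other 6, with replicate 1 of day 90 no different from its fellows. The log2 difference was −0.66 ± 0.26 for day 90 against day 7 (limma adjusted p = 0.498), and −0.62 without replicate 1 of day 90. Cox4i1 (ENSMUSG00000031818, chr8:120668222-120674207), the main isoform of the regulatory subunit 4, was likewise chosen after its values were seen, as the member with the smallest p for day 30 against day 7. Its values were 174, 187 and 147 CPM on day 7, 117, 78 and 124 CPM on day 30, and 153, 126 and 105 CPM on day 90. Every day 30 library lay below every day 7 library, day 90 spanned the gap, and the log2 difference was −0.69 ± 0.25 (adjusted p = 0.645).

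Cox6a1 (ENSMUSG00000041697, chr5:115345642-115348981), the broadly expressed form of subunit 6A and the complex IV member with the highest mean, varied least of all nuclear members, with 212, 201 and 191 CPM on day 7, 223, 181 and 185 CPM on day 30, and 207, 231 and 192 CPM on day 90. Its coefficient of variation over the 9 libraries was 8.52%, and the log2 difference for day 90 against day 7 had a 95% interval of −0.38 to 0.49. Unlike Cox6b1, it was not highest in replicate 1 of day 90. The mitochondrial share of complex IV cannot be read from the sums, since only mt-Co1 carried appreciable reads.

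**Figure D4:**
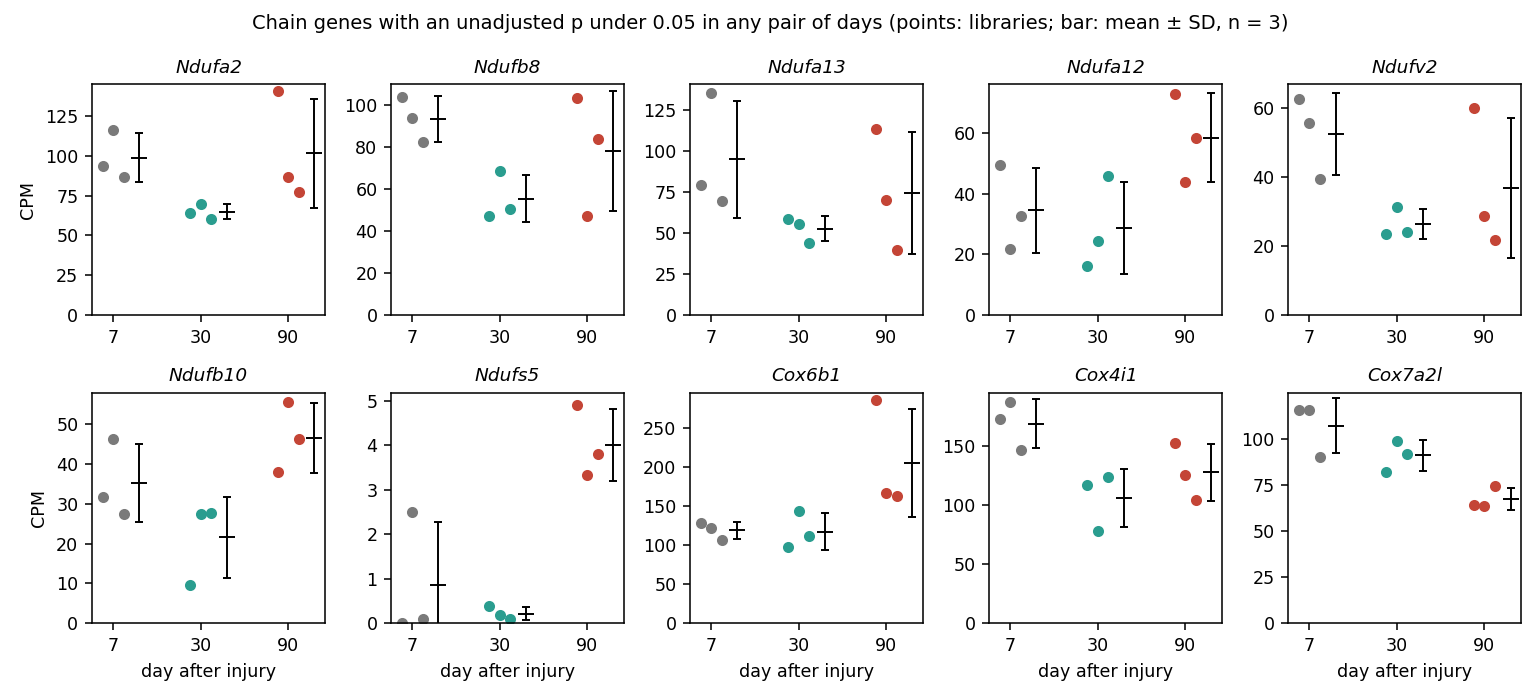
CPM of the 10 members with an unadjusted limma p under 0.05 in any pair of days; points are libraries in replicate order and bars are the mean ± SD of 3 mice per day, the bar of Ndufs5 on day 7 running below 0 where it is not drawn. Cox6b1 and Ndufs5 have all 3 day 90 points above the other 6, Cox7a2l has them below, and Cox4i1, Ndufb8, Ndufv2, Ndufa13 and Ndufa2 have their day 30 points below those of day 7. Ndufs5 passed the filter only through its day 90 libraries.

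Complex V, the ATP synthase, had the highest level of a nuclear member and 17 members that summed to 1865 ± 270.3 CPM on day 7, 1845 ± 274 CPM on day 30 and 2032 ± 538 CPM on day 90. Atp5g3 (ENSMUSG00000018770, chr2:73908447-73911326), 1 of 3 genes for the same mature rotor-ring subunit c, had 515, 661 and 521 CPM on day 7, 443, 545 and 404 CPM on day 30, and 802, 495 and 417 CPM on day 90. Day 90 replicate 1 and day 7 replicate 3 were the highest libraries and all days overlapped, with a log2 difference of −0.03 ± 0.22 for day 90 against day 7 and a 95% interval of −0.47 to 0.41. Atp5g1 (ENSMUSG00000006057, chr11:96068852-96075670), the second gene for subunit c, had the smallest F-test p of the complex, with 22.5, 53.8 and 31 CPM on day 7, 46.6, 26 and 22.8 CPM on day 30, and 73.5, 58.5 and 31.4 CPM on day 90. Its days overlapped (adjusted p = 0.826, limma). The third, Atp5g2, averaged 3.24 CPM, so that the CPM of the 3 genes ranked Atp5g3, Atp5g1, Atp5g2 in the means of every day. The catalytic subunits followed Atp5g3, with 319 CPM for Atp5a1 (alpha) and 300.1 CPM for Atp5b (beta). Complex V medians were 0.18, 0.02 and 0.11 in the same order. Without replicate 1 of day 90 they were −0.038 and −0.12 for the comparisons with day 90.

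**Figure D5:**
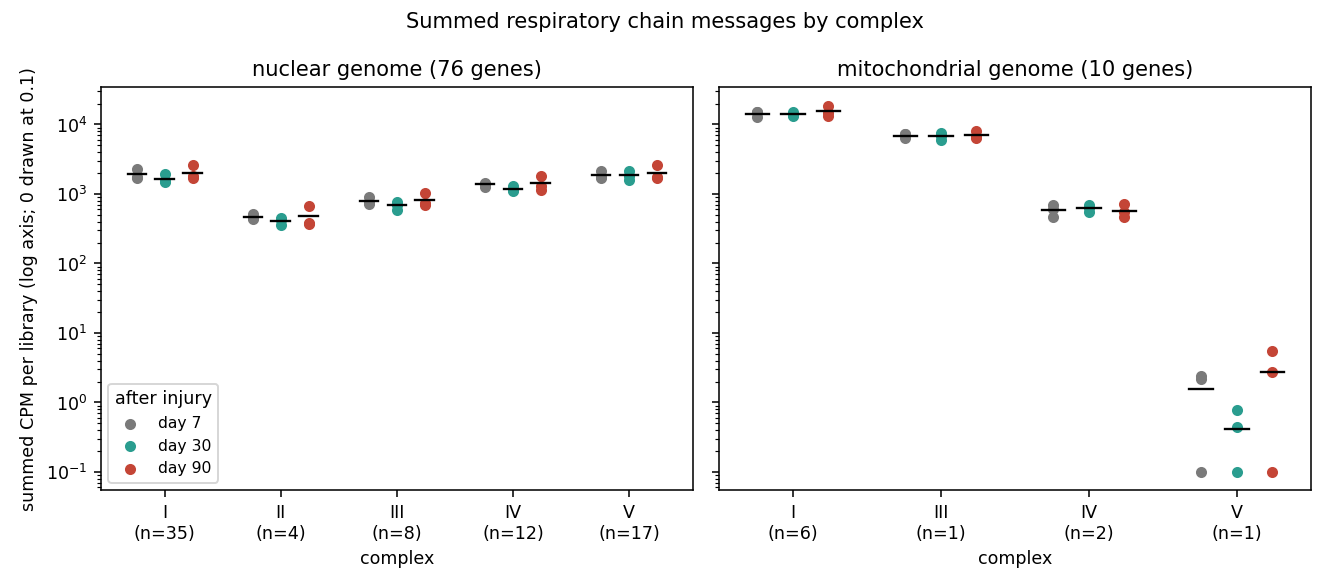
Summed CPM of the members of each complex, per library, on a log axis, for the nuclear (left) and the mitochondrial (right) genome on days 7, 30 and 90; bars are the mean of 3 mice and sums of 0 are drawn at 0.1. The days overlap in every complex, with nuclear complex I at 1910.2 ± 314 CPM on day 7, 1649 ± 238 CPM on day 30 and 2024 ± 479.9 CPM on day 90.

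The balance of the genomes overlapped between days when all members were summed. Summed over all members, mitochondrial messages had 21818 ± 1629 CPM on day 7, 21403 ± 1617 CPM on day 30 and 23097 ± 3889.8 CPM on day 90. Nuclear messages had 6410.4 ± 747 CPM on day 7, 5786 ± 732 CPM on day 30 and 6775 ± 1712 CPM on day 90. The ratio of mitochondrial to nuclear CPM was 3.42 ± 0.283 on day 7, 3.75 ± 0.608 on day 30 and 3.46 ± 0.324 on day 90 (SD, n = 3 each), and the ranges of the 3 days overlapped. It was 7.57 ± 0.888 on day 7, 8.65 ± 1.48 on day 30 and 7.73 ± 0.708 on day 90 within complex I. It was 8.81 ± 1.17 on day 7, 9.94 ± 2.1 on day 30 and 8.64 ± 0.619 on day 90 within complex III, where the days overlapped too. In complex IV, where mt-Co1 makes up nearly all of the mitochondrial sum, the ratio was 0.432 ± 0.0956 on day 7, 0.527 ± 0.0635 on day 30 and 0.408 ± 0.0163 on day 90, and every day 90 value lay below every day 30 value. This was the only one of these ratios in which 2 days did not overlap, and the end of mt-Co1 lies within a nuclear copy. An exact permutation test, not planned and run only for this ratio and pair of days, gave a two-sided p of 0.1. That is the smallest that 3 against 3 allows and is fixed once the 2 days do not overlap, so the test cannot decide. These ratios depend on which messages could be read and compare days, not absolute amounts.

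Copies also touched nuclear members. For 10 of the 76, at least 100 of the last 300 bases matched another gene elsewhere at 98% identity or more, in all cases a processed pseudogene: Ndufb11, Ndufs3, Ndufs5, Uqcrb, Uqcr11, Cox6c, Cox7c, Atp5h, Atp5l and Atp5g2. Their mean levels had a median of 18.7 CPM, against 70.3 CPM for the other 66. The share of the summed CPM that was assigned to the copies ran from 2.93% for Ndufb11 to 78.8% for Ndufs5, and was 53.8% for Cox7c and 50.02% for Atp5h. Levels of these 10 are uncertain, as are those of Ndufb2, Ndufb6, Uqcrc2 and Cox5a, whose ends overlap with a neighbouring gene in the annotation. Leaving out all 14 gave nuclear medians of 0.14 for day 90 against day 7, −0.12 for day 30 against day 7 and 0.25 for day 90 against day 30.

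Short letters known from the binding sites of regulators of chain genes were looked up in the RefSeq promoter table (GRCm38.p6, 250 bases before to 50 after the start), which held 65 of the 76 nuclear members, 62 by symbol and 3 by an older symbol. Searched on both strands were GCGCATG for NRF1, CCGGAAG for ETS factors such as GABP, AAGATGG for YY1 and AAGGTCA for ERR. The last letters of CCGGAAG can serve as the first of AAGATGG or AAGGTCA, so matches of these may overlap. GCGCATG was present in 13 of 65 (20% against 4.41% of all genes in the table), CCGGAAG in 16 of 65 (24.6% against 9.93% of all genes in the table), AAGATGG in 12 of 65 (18.5% against 7.28% of all genes in the table) and AAGGTCA in 8 of 65 (12.3% against 5.38% of all genes in the table). At least 1 of the 4 was in 37 of 65. The genes of the table were not matched to the members for expression or base composition. Whether the higher shares are particular to chain genes was therefore not tested. The 250 bases before the start are shown for the member with the highest mean of complexes I, III, IV and V, in lower case with matches in capitals, to show what such matches look like in the members described above.
Ndufc2 (chr7:97399753-97400002, plus strand): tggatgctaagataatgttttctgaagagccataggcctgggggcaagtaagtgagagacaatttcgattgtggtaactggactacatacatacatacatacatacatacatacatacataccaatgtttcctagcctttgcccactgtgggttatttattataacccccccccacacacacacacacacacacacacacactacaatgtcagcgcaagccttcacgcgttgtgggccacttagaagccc
Uqcrh (chr4:116075071-116075320, minus strand): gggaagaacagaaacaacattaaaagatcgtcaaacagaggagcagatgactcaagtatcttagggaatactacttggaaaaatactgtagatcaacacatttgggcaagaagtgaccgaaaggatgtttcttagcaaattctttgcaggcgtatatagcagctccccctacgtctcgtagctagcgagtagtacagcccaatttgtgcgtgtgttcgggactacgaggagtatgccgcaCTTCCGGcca
Cox6a1 (chr5:115348959-115349208, minus strand): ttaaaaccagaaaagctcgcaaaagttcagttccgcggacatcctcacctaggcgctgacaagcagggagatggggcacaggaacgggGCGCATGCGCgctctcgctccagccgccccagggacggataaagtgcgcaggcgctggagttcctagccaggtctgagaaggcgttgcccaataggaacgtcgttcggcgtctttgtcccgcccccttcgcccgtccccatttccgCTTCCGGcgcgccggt
Atp5g3 (chr2:73911327-73911576, minus strand): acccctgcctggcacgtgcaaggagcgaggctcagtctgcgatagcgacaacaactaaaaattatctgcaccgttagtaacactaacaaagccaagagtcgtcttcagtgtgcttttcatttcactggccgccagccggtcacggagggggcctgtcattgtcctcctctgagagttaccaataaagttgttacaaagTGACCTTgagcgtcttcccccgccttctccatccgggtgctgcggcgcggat
Uqcrh held the ETS letters once, Cox6a1 held NRF1 letters on both strands, overlapping, and ETS letters once, Atp5g3 held the ERR letters once, and Ndufc2 held no match in this window. A match is a description of letters, not a binding site.

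Among genes around the chain, limma called 0 of any of the following lists in any pair of days. Medians follow the order used above (day 90 then day 30 against day 7, then the later pair). They stand beside −0.02, 0.04 and −0.06 for all genes. Carriers, subunits outside the naming pattern and tissue isoforms (9 tested) had medians of 0.13, −0.47 and 0.37, and cytochrome c1, Cyc1, the most abundant of them, had 69.5 ± 29.7 CPM on day 7, 46.5 ± 3.06 on day 30 and 60.4 ± 3.07 on day 90 (F-test adjusted p = 0.879, limma). The 44 assembly factors had −0.15, −0.18 and 0.08, led in abundance by the complex IV factor Coa5 with 81.2 ± 8.88 CPM on day 7, 73.5 ± 7.01 on day 30 and 70.02 ± 17 on day 90. The 21 genes of mitochondrial genome maintenance and expression had 0.07, 0.18 and −0.15, with Lrpprc, which stabilises mitochondrial messages, at 69.1 ± 13.2 CPM on day 7, 65.9 ± 16.5 on day 30 and 72.5 ± 11.8 on day 90. The 9 nuclear regulators had 0.35, 0.29 and −0.17, and Yy1 stood at 84.7 ± 16.9 CPM on day 7, 81.1 ± 8.75 on day 30 and 96.6 ± 15.2 on day 90.

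The 75 mitochondrial ribosomal proteins had medians of −0.22, −0.11 and −0.09, with 4 (5.33%) at an unadjusted p under 0.05 for day 90 against day 7, where 7.73% of all genes were. Mrpl24, the most abundant, stood at 49.4 ± 4.84 CPM on day 7, 50.8 ± 9.69 on day 30 and 48.5 ± 6.27 on day 90. The 16 genes of the tricarboxylic acid cycle and pyruvate dehydrogenase had −0.03, −0.14 and 0.16. For comparison, the 81 cytoplasmic ribosomal proteins had −0.38, −0.26 and −0.10, with 14 (17.3%) at an unadjusted p under 0.05 for day 90 against day 7, where 7.73% of all genes were. The difference between this list and the chain was not tested. The ribosomal RNA mt-Rnr2, transcribed from the same mitochondrial precursor as the messages, had 21307 ± 3602 CPM on day 7, 17108 ± 897 on day 30 and 17809 ± 2221 on day 90. The other ribosomal RNA, mt-Rnr1, had 6065 ± 1519 CPM on day 7, 5177 ± 262 on day 30 and 7357 ± 901 on day 90. Every day 90 library of mt-Rnr1 lay above every day 30 library, with a log2 difference of 0.50 ± 0.22 (limma adjusted p = 0.953).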

How the data were processed

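Microglial RNA of 9 mice, 3 per day, was analysed. The authors deposited CPM (reads per gene, scaled to a library total of 1000000 counted reads). Per the submitters' processing notes, bcl2fastq, STAR, HTSeq and the mm10 genome were used. What version and annotation release they had, how strand was set and how reads with several alignments were treated is not given in the sources used here. Deposited CPM were whole multiples of 1 read in 100% of values within a tolerance of 1e-06, which gave 7210985 to 12965926 reads per library. One read was therefore worth the same CPM for every gene of a library, and 3 reads, the limit that a count of 0 allows, were 0.231 to 0.416 CPM; such limits cover counting error only.

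The 15041 genes that reached 1 CPM in 3 or more libraries were tested on log2(CPM + 1), a scale that understates differences of low genes, with limma 3.58.1 (R 4.3.3) in 1 fit of all 3 days with a trend of the variance on the mean, 6 residual and 28.4 prior degrees of freedom, and Benjamini-Hochberg adjustment over all tested genes at a threshold of 0.05. The scripts were tested on simulated data. On the recovered reads edgeR 4.0.16 (quasi-likelihood test) called 22 genes for day 90 against day 7, 0 for day 30 against day 7, 7 for day 90 against day 30 and 16 over the 3 days; DESeq2 1.42.0 called 130, 34, 27 and 53. The labels name no batch. The limma p-values and standard errors join a gene's spread between these 9 mice with the trend of the variance over all genes. The trend carried more weight, with 28.4 prior against 6 residual degrees of freedom.

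The members and lists were chosen with earlier results of these data known. Values per library were given for members past the threshold, for the member with the highest mean and that with the smallest F-test p in each complex of each genome, and for the mitochondrial messages; other lists were represented by their most abundant member, which is not reported here for the tricarboxylic acid cycle. Members with an unadjusted p under 0.05 were added after their values were seen. Copies were found by aligning the last 300 bases of nuclear transcripts and whole mitochondrial genes to the GENCODE M21 transcripts with blastn 2.17.0, with at least 98% identity over at least 100 bases. Gene positions are those of GENCODE M21 (mm10). Sums, motifs and figures were made with Python 3.11.15, pandas 2.3.3, numpy 2.4.6, Biopython 1.88 and matplotlib 3.10.9. Other pseudocounts, filters, scalings and tools, and fits without each library, were tried.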

Additional observations from a re-analysis of the deposited data

How the results depend on the processing

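Every alternative run called 0 members in each pair of days and in the F-test, with smallest adjusted p values of 0.166 for day 90 against day 7, 0.376 for day 30 against day 7, 0.285 for day 90 against day 30 and 0.0546 over the 3 days. Medians were held against the spread between mice of 1 day (SD 0.27 nuclear, 0.21 mitochondrial), which exceeds most of the medians themselves, so their signs are not firm: those of the day 90 comparisons turned in some fits. Leaving out 1 library at a time moved the nuclear median log2 difference over −0.08 to 0.27 for day 90 against day 7, −0.26 to −0.01 for day 30 against day 7 and 0.03 to 0.38 for day 90 against day 30, and the mitochondrial median over −0.13 to 0.15, −0.11 to 2.4e-06 and 0.02 to 0.34. The negative values for day 90 against day 7 came from leaving out replicate 1 of day 90. With the other pseudocounts, filters, scalings and tools and without members that have a close copy or an overlapping gene, an alternative chosen after seeing the data, the nuclear medians stayed within 0.14 to 0.19, −0.15 to −0.11 and 0.22 to 0.28.

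With the replicate number as a block, the nuclear median for day 90 against day 7 was −0.17, that for day 90 against day 30 was −0.02 and the mitochondrial median for day 90 against day 7 was −0.07. Number 1 occurs only on day 90, so that this fit takes replicate 1 of day 90 out of the comparison. Correlations of deviations ran from −0.045 to 0.039 between same-numbered libraries and from −0.058 to 0.041 between differently numbered ones. They showed no pairing by number, and whether same-numbered mice shared a cohort or processing was not tested. The block called 0 members, and 42, 10 and 6 of all genes for the 3 pairs of days.

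With 3 mice a day, differences under about 2-fold were within the interval of many members, and messages listed at 0 lie under the limit that a count of 0 allows or could not be placed uniquely.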
